A study of Mus musculus with 14 samples.

Results

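The 10 genes described here encode D-type, E-type and A-type cyclins (Ccnd1, Ccnd2, Ccnd3, Ccne1 and Ccna2) and inhibitors of the cyclin-dependent kinases (Cdkn1a, Cdkn1b, Cdkn2a, Cdkn2b and Cdkn2c). They were taken by symbol from the 16181 protein-coding genes of the deposited expression table, and all 10 were found there. RNA had been sequenced from mouse embryonic stem cells (ESCs) of 2 lines, a control line carrying an shRNA against LacZ (shLacZ) and a line carrying an shRNA against Dis3l2 (shDis3l2), an exoribonuclease that degrades RNAs tagged with uridines. According to the paper, the ESCs used for differentiation, with either shRNA, carried an Osr1-GFP reporter for the renal lineage. Undifferentiated cells grown with LIF and 2i gave the libraries of d0. Cells from which LIF and 2i had been withdrawn, and which were aggregated in hanging drops with serum into embryoid bodies (EBs), gave the libraries of d2, d4, d6, d8, d10 and d12. Each line and day is represented by 1 library, 14 in all, and whether the shRNA lines were clones or pools is not given in the sources used here. An EB holds many cell types, so a smaller share of cells that express a gene cannot be told apart from less of its RNA per cell.

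D-type cyclins are induced by growth factor and adhesion signals, and with Cdk4 or Cdk6 they phosphorylate the retinoblastoma protein, which releases E2F factors from repression. Cyclin E with Cdk2 then drives entry into S phase, and cyclin A accompanies S phase and the passage to mitosis. The Cip/Kip inhibitors p21 (Cdkn1a) and p27 (Cdkn1b) bind complexes of cyclins and kinases, while the Ink4 inhibitors p15 (Cdkn2b), p16 (1 product of Cdkn2a) and p18 (Cdkn2c) bind Cdk4 and Cdk6. The other product of Cdkn2a, p19Arf, stabilizes p53. ESCs are known for a short G1 phase, which lengthens when they differentiate.

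The family features of the members can be read from their coding sequences, which were taken from the principal GENCODE M21 transcripts on GRCm38. The D-type cyclins share a motif near their start codon, LxCxE, through which retinoblastoma family proteins are bound. Their opening codons are printed because the balance among these 3 genes shifted over the time course, with the 15 bases of the motif in capitals. Ccnd1 (chr7:144939652-144939693, minus strand), Ccnd2 (chr6:127150738-127150773, minus strand) and Ccnd3 (chr17:47593655-47593690, plus strand) read as follows.
Ccnd1: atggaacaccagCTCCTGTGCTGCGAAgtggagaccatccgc
Ccnd2: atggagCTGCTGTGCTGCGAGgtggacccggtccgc
Ccnd3: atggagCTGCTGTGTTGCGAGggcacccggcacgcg
Of the 15 capital bases, 14 were the same in Ccnd2 and Ccnd3, 13 in Ccnd1 and Ccnd2, and 12 in Ccnd1 and Ccnd3. The coding sequences run to 295, 289 and 292 codons for Ccnd1, Ccnd2 and Ccnd3.

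The Cip/Kip inhibitors share the RxLFG motif, by which they dock on cyclins. The windows of Cdkn1a (chr17:29098444-29098488, plus strand), Cdkn1b (chr6:134920992-134921036, plus strand) and the remaining family gene Cdkn1c (chr7:143460582-143460626, minus strand) are given with the motif in capitals, because these genes differed in direction between the lines.
Cdkn1a: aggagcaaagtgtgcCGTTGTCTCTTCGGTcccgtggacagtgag
Cdkn1b: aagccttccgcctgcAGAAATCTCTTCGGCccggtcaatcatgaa
Cdkn1c: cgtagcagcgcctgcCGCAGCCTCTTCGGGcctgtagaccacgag
The motif begins at codon 18 of 159 in Cdkn1a, at codon 30 of 197 in Cdkn1b and at codon 20 of 335 in Cdkn1c.

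Promoters were taken from the RefSeq table on GRCm38.p6, which held 11 start sites of 7 members. Ccnd1, Ccnd2 and Ccna2 were not matched. The 250 bases before each start site were searched on both strands, and the windows below show a choice of the matches, in capitals, of elements bound by E2F, CREB and p53. An E2F element (TTTCCCGC, TTTGGCGC, TTTCGCGC or TTTGCCGC) was found in 1 of the 11, the upstream start of Cdkn2a (chr4:89294691-89294738, minus strand), and in 1.86% of 32851 promoters. A cAMP response element (TGACGTCA) was found in Cdkn2b alone (chr4:89311051-89311098, minus strand), against 1.55% of promoters. The decamer of the p53 response element occurred at 73 and at 51 bases before the upstream start of Cdkn1a, of which the second is shown (chr17:29090908-29090957, plus strand), and in 7.13% of promoters.
Cdkn2a: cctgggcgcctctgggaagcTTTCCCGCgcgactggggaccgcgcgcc
Cdkn2b: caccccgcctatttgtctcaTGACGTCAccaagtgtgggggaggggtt
Cdkn1a: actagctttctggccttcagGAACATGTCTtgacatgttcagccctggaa
A CCAAT box (CCAAT) was present in a start site each of Cdkn1b and Ccnd3, against 33.8% of promoters, and a GC box (GGGCGG) in 7 of the 11, against 32.7%. A CHR element (TTTGAA) was matched in Cdkn2b alone, against 16.0% of promoters. The full p53 response element, searched as adjacent decamers with no mismatch allowed, was matched in 0 of the 11, against 0.00913%. In the Cdkn1a window, the bases right after the capitals differ from a further decamer only at their first base. This site was therefore not counted as a full element, and the search does not show that Cdkn1a lacks one. These are matches of letters and not measured binding.

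Levels are given as CPM, the counts of a gene relative to the size of its library, with library sizes scaled by the trimmed mean of M values (TMM). Between 7178712 and 39888099 reads per library were counted. The d0 libraries stood apart, with 78.4% (shLacZ) and 75.3% (shDis3l2) of their reads on protein-coding genes against 85.6 to 90.5% in the others, and with TMM factors of 0.764 and 0.642 against 0.999 to 1.12. Dis3l2 was reduced in the libraries labelled shDis3l2 early but not throughout. Relative to shLacZ its level was 16.3, 29.1, 32.3, 53.9, 90.7, 92.1 and 70.6% from d0 to d12. At d8 and d10 its exact 95% interval of the ratio, which covers counting error only, included equality (0.782 to 1.05 and 0.764 to 1.12). The markers of the undifferentiated state were present at d0, where the summed level of 12 pluripotency-like genes was 5400.0 CPM in shLacZ and 4903 CPM in shDis3l2, and 580.3 to 713 CPM and 175 to 436 CPM at d6 to d12.

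How the members moved when LIF and 2i were withdrawn was asked first. From d0 to d2, Ccnd2 rose and Ccnd1 and Ccnd3 fell, so the D-type cyclin mRNAs moved in opposite directions in both lines. Cdkn2a and Cdkn1a fell, and Ccne1 and Cdkn1b rose. With the 2 lines standing in for replicates of a day, 7 of 10 members passed the edgeR quasi-likelihood test at an adjusted p under 0.05 (Benjamini-Hochberg over 20050 genes), 3 higher and 4 lower. Of all genes tested, 65.5% passed, 34.5% higher and 31.0% lower, so a share this large was the background of this step. Under library totals without TMM, 9263 genes were higher and 4108 lower in place of 6924 and 6212, and the median log2 change of all genes was 0.71 in place of 0.12. The call of Cdkn1a was lost under library totals (log2 change -0.00071). Relative to the median of all genes, its log2 change was -0.73 with TMM and -0.71 with library totals. Scaling moves all genes of a library alike, so values relative to the median stay nearly the same by construction. They are no check of the call.

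Ccnd2 had the widest range of the 10 genes. It stood at 0.623 CPM (19 reads) at d0 in shLacZ and at 19.4, 66.4, 65.5, 65.9, 90.6 and 92.2 CPM from d2 to d12. In shDis3l2 it stood at 0.588 CPM (10 reads) at d0 and at 16.3, 101, 108, 118, 146 and 185 CPM on the following days. The lines did not differ beyond counting error at d0, and from d4 on every shDis3l2 library was higher than the shLacZ library of its day. The fitted rise from d0 to d2 was 29.0-fold (95% interval of the fit 16.9 to 49.8, edgeR adjusted p = 2.5e-06), and that from d2 to d12 was 7.14-fold (4.67 to 10.9, adjusted p = 4.91e-05).

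Ccnd1, the cyclin through which many mitogen signals reach the cell cycle, moved the other way. Its levels from d0 to d12 were 263, 82.5, 101, 68.2, 40.9, 42.6 and 40.0 CPM in shLacZ. They were 324, 67.9, 121, 106, 19.4, 23.3 and 38.6 CPM in shDis3l2. Both lines were highest at d0, and shDis3l2 crossed from above shLacZ at d4 and d6 to below it at d8 and d10. The fall from d0 to d2 was 3.94-fold (2.24 to 6.92, edgeR adjusted p = 0.000839), while the change from d2 to d12 missed the threshold (log2 change -0.93, SE 0.36, adjusted p = 0.0549). It passed in 5 of 9 alternative fits, with DESeq2 (adjusted p = 0.0384), without the filter on low counts and without each of d6, d8 and d10. Exons of Ccnd1 share 1100 bases, 23.4% of its exonic length, with LTO1 on the opposite strand, and the strand setting of the counting is not given in the sources used here, so reads of the pair could not be told apart.

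Ccnd3 fell and came back. It was at 333, 37.5, 56.8, 111, 135, 135 and 148 CPM in shLacZ. It was at 395, 38.6, 71.2, 119, 207, 226 and 187 CPM in shDis3l2, above shLacZ on every day from d4 on. Its fall from d0 to d2 was 9.48-fold (7.05 to 12.8, edgeR adjusted p = 1.18e-06), and it then rose 4.35-fold to d12 (3.27 to 5.79, adjusted p = 2.63e-05). At d2 and d6 the difference between the lines lay within counting error (1.03-fold, 0.940 to 1.13, and 1.07-fold, 0.996 to 1.16), and the ratio of 1.19 at d0 became 0.999 under library totals without TMM.

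**Figure D1:**
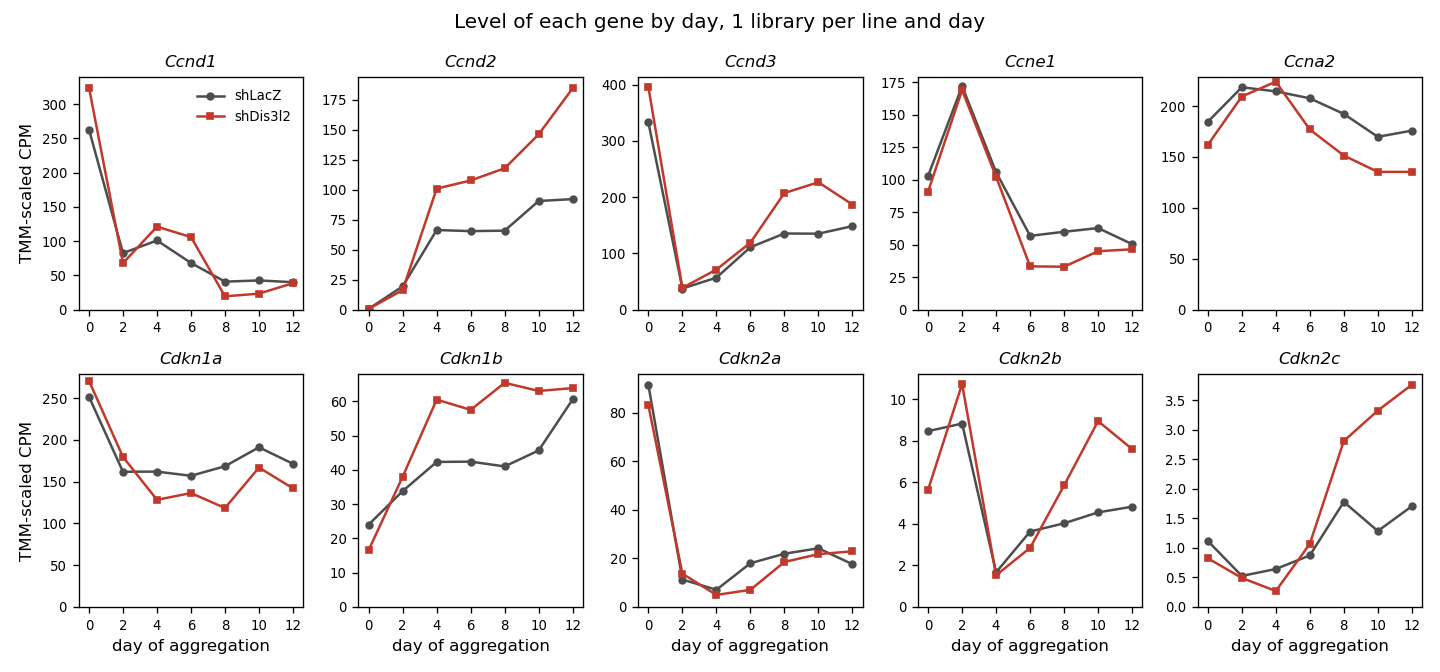
Level of each of the 10 genes (vertical axis, TMM-scaled CPM, from 0, scale set per gene) against day of aggregation (horizontal axis) in shLacZ (grey circles) and shDis3l2 (red squares), 1 library per point and no error bar. Ccnd2 climbs from under 1 CPM at d0 to 92.2 and 185 CPM at d12, Ccnd1 and Cdkn2a are highest at d0, Ccne1 peaks at d2, and the lines part most visibly after d4.

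Because genes can be compared with each other only per length, the levels were also divided by the listed exonic length (CPM per kilobase, RPKM). On that scale the D-type cyclin mRNA of undifferentiated cells was Ccnd1 and Ccnd3, with 59.5 and 40.4% of their summed RPKM in shLacZ and 60.4 and 39.5% in shDis3l2, while Ccnd2 held 0.0706 and 0.0548%. These shares depend on the listed lengths, 4709 bases for Ccnd1, 9409 for Ccnd2 and 8775 for Ccnd3. Such a length sums all exons of a gene and need not be that of the mRNA present. In CPM, without division by length, Ccnd3 was above Ccnd1 at d0, at 333 against 263 in shLacZ and 395 against 324 in shDis3l2. Per length, Ccnd1 held 73.4% at d2 in shLacZ and 70.2% in shDis3l2. At d12 the shares of Ccnd1, Ccnd2 and Ccnd3 were 24.1, 27.8 and 48.0% in shLacZ. They were 16.7, 40.0 and 43.4% in shDis3l2. The share of Ccnd1 differed most between the lines at d8, where Ccnd1 held 27.9% in shLacZ and 10.2% in shDis3l2. The summed RPKM itself was 93.8 at d0, 23.9 at d2 and 35.2 at d12 in shLacZ, and 114, 20.6 and 49.1 in shDis3l2.

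**Figure D2:**
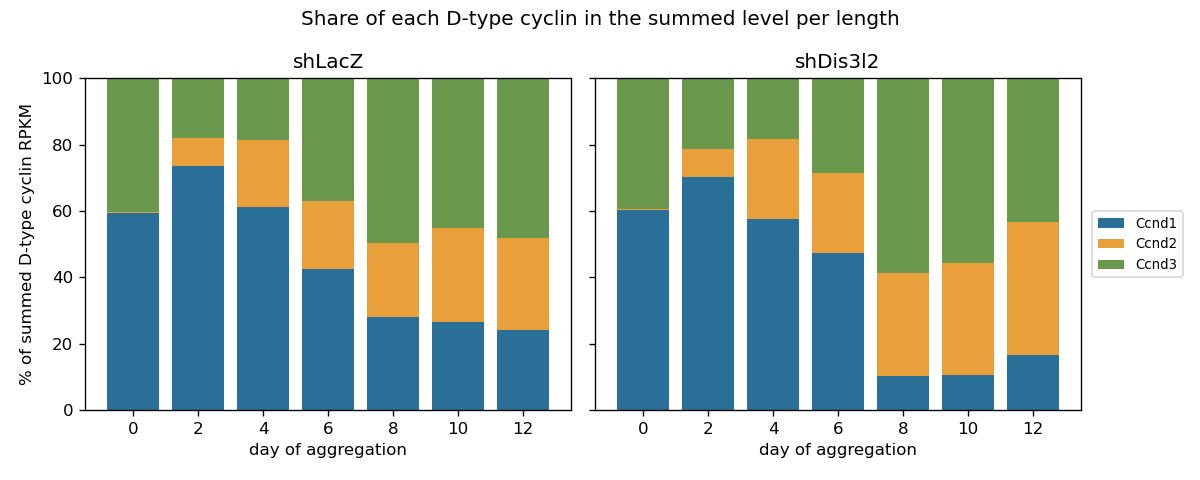
Share of Ccnd1 (blue), Ccnd2 (orange) and Ccnd3 (green) in the summed RPKM of the 3 genes (vertical axis, %, 0 to 100) by day of aggregation (horizontal axis), shLacZ on the left and shDis3l2 on the right, 1 library per bar. Ccnd2 is not visible at d0 and reaches 27.8% in shLacZ and 40.0% in shDis3l2 at d12, while Ccnd1 goes from 60.4% at d0 to 10.2% at d8 in shDis3l2.

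The cyclins of S phase followed a different course. Ccne1, which activates Cdk2 at the entry to S phase, stood at 103, 172, 106, 56.8, 59.9, 62.8 and 50.4 CPM in shLacZ. In shDis3l2 it stood at 91.0, 169, 102, 33.3, 33.0, 45.0 and 46.5 CPM. Both lines peaked at d2 and were lower from d6 on, when all 4 shDis3l2 libraries were below all 4 shLacZ libraries. Ccne1 rose 1.77-fold from d0 to d2 (1.26 to 2.48, edgeR adjusted p = 0.00715) and fell 3.53-fold from d2 to d12 (2.49 to 5.01, adjusted p = 0.000202). The summed D-type RPKM was 0.369 times the Ccne1 RPKM in shLacZ at d2 and 0.324 times in shDis3l2, and 1.86 and 2.81 times at d12.

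Ccna2 was the steadiest of the 10 genes, with a highest level 1.66 times the lowest. It was at 184, 218, 214, 208, 192, 169.7 and 176 CPM in shLacZ and at 162, 209, 224, 177, 151, 135 and 135 CPM in shDis3l2. From d2 to d12 it fell 1.39-fold (1.12 to 1.72, edgeR adjusted p = 0.0194). Its change from d0 to d2 missed the threshold (log2 change 0.31, SE 0.14, adjusted p = 0.0745) and passed it under library totals (log2 change 0.91, adjusted p = 0.000197). Of its exonic length 12.5% is shared with Exosc9 on the opposite strand. Smaller shares of other members overlap genes on the opposite strand. These are 4.11% of Ccnd3 with a protein-coding gene, 3.95 and 3.91% of Ccnd2 with antisense genes, and 4.05% of Cdkn1a.

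Among the inhibitors, the Cip/Kip genes had different time courses: Cdkn1b rose in both steps, while Cdkn1a passed only from d0 to d2, as a fall. Cdkn1a, a main target of p53, was at 252, 162, 162, 157, 168, 191 and 171 CPM in shLacZ and at 271, 179.6, 128, 136, 118, 167 and 142 CPM in shDis3l2. It fell 1.53-fold from d0 to d2 (1.18 to 1.98, edgeR adjusted p = 0.00858), with the dependence on scaling given above, and did not pass from d2 to d12 (log2 change -0.14, SE 0.17, adjusted p = 0.525). Cdkn1b, whose product holds cells in G1 and quiescence, was at 24.0, 33.8, 42.3, 42.4, 41.0, 45.6 and 60.6 CPM in shLacZ. In shDis3l2 it was at 16.6, 38.0, 60.5, 57.5, 65.4, 63.0 and 63.8 CPM, below shLacZ at d0 and above it on all later days. It rose 1.72-fold from d0 to d2 (1.17 to 2.54, adjusted p = 0.0185) and 1.74-fold from d2 to d12 (1.18 to 2.56, adjusted p = 0.0243). Per length, Cdkn1b stood at 0.0466 times Cdkn1a at d0 and 0.173 times at d12 in shLacZ, and at 0.0299 and 0.220 times in shDis3l2.

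Among the Ink4 genes, Cdkn2a dropped when LIF and 2i were withdrawn, and Cdkn2c rose later. Cdkn2a was at 91.5 CPM at d0 and at 11.3, 7.05, 18.0, 21.9, 24.2 and 17.6 CPM afterwards in shLacZ. It was at 83.2 CPM at d0 and at 13.7, 4.93, 7.02, 18.5, 21.8 and 22.9 CPM afterwards in shDis3l2. Its fall from d0 to d2 was 6.93-fold (4.04 to 11.9, edgeR adjusted p = 6.52e-05), while its change from d2 to d12 missed the threshold ( log2 change 0.70, SE 0.34, adjusted p = 0.107) and passed it without d6 (adjusted p = 0.0326). The counts of Cdkn2a add up the transcripts of p16 and p19Arf, so the data do not say which of them was measured.

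Cdkn2b, which lies beside Cdkn2a on chromosome 4, was at 8.47, 8.83, 1.67, 3.63, 4.03, 4.55 and 4.83 CPM in shLacZ and at 5.65, 10.7, 1.52, 2.84, 5.85, 8.95 and 7.60 CPM in shDis3l2. Both lines were lowest at d4, as they were for Cdkn2a, and neither contrast of days passed (edgeR adjusted p = 0.326 for d2 against d0 and 0.171 for d12 against d2). Cdkn2c had the fewest reads of the members. It was at 1.12, 0.524, 0.641, 0.871, 1.78, 1.28 and 1.70 CPM in shLacZ and at 0.823, 0.490, 0.269, 1.07, 2.81, 3.32 and 3.76 CPM in shDis3l2, from 5 to 75 reads per library. It rose 5.11-fold from d2 to d12 (2.13 to 12.2, adjusted p = 0.00699), and its change from d0 to d2 did not pass (adjusted p = 0.156).

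Over d2 to d12, then, 6 of 10 members passed, 4 higher (Ccnd2, Ccnd3, Cdkn1b and Cdkn2c) and 2 lower (Ccne1 and Ccna2), with a median log2 change of 0.28, against 48.4% of all genes (25.6% higher, 22.8% lower, median -0.02). Ordered per length over d6 to d12 in shLacZ, the medians were 76.4 RPKM for Cdkn1a, 45.1 for Ccna2, 21.9 for Ccne1, 17.0 for Cdkn2a, 15.4 for Ccnd3, 9.67 for Cdkn1b, 8.86 for Ccnd1, 8.31 for Ccnd2, 3.08 for Cdkn2b and 0.556 for Cdkn2c. The ranges over these 4 libraries overlapped between neighbours from Ccne1 to Ccnd2 and did not overlap between Cdkn1a and Ccna2, Ccna2 and Ccne1, Ccnd2 and Cdkn2b, or Cdkn2b and Cdkn2c. In shDis3l2 the order ran Cdkn1a (62.6 RPKM), Ccna2 (35.1), Ccnd3 (22.5), Cdkn2a (17.2), Ccne1 (14.7), Ccnd2 (14.03), Cdkn1b (13.9), Ccnd1 (6.57), Cdkn2b (4.83) and Cdkn2c (1.14), with the ranges of all neighbours from Ccnd3 to Cdkn2b overlapping.

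The second question was whether the lines differed. In late EBs (d6 to d12) the members split: Ccnd2, Ccnd3, Cdkn1b and Cdkn2c were higher in the libraries labelled shDis3l2, and Ccne1, Ccna2 and Cdkn1a were lower. With day as a block and the 4 days standing in for replicates, 7 of 10 members passed the edgeR quasi-likelihood test, against 38.3% of the 17164 genes tested (19.6% higher and 18.7% lower), and the median log2 difference of the members was 0.12 against 0.02 of all genes. These days come from 1 series of cultures per line, so the test covers the spread between days and not other cultures. Without d8 or without d10, Ccnd2 alone passed, without d12 Ccnd2, Ccnd3, Ccne1 and Cdkn1b passed, and without d6 9 members passed.

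Ccnd2 differed most surely. Its level in shDis3l2 was 1.83 times that in shLacZ over d6 to d12 (95% interval 1.61 to 2.08, edgeR adjusted p = 0.000632), higher on 4 of 4 days. The shLacZ libraries lay between 65.5 and 92.2 CPM and the shDis3l2 libraries between 108 and 185 CPM, so the groups did not overlap, as was the case in this direction for 9.74% of genes. Its adjusted p stayed under the threshold in all 8 alternative fits, at most 0.0096. It was also the only member to pass over all 7 days (log2 difference 0.57, SE 0.15, adjusted p = 0.0491, against 5.72% of genes, 1.91% higher and 3.82% lower), higher on 5 of 7 days, a call that was lost under library totals or DESeq2 size factors and without each of d4, d6, d8, d10 and d12 (adjusted p at most 0.162 among these).

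Ccnd3 was 1.42 times as high in shDis3l2 over the same days (1.18 to 1.72, edgeR adjusted p = 0.0139), and its largest daily ratio was at d10 (1.68-fold, exact interval 1.57 to 1.79). Ccnd1 did not pass (log2 difference -0.27, SE 0.27, adjusted p = 0.464), and its days lay on both sides of equality. It was 1.56-fold higher at d6 (1.43 to 1.70) and stood at 0.474 times shLacZ at d8 (0.418 to 0.536), 0.547 times at d10 (0.478 to 0.627) and 0.964 times at d12 (0.843 to 1.10). Without d6, Ccnd1 passed as lower (log2 difference -0.61, adjusted p = 0.0372).

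Ccne1 in shDis3l2 was 0.707 times that in shLacZ (0.573 to 0.872, edgeR adjusted p = 0.0211), lower on 4 of 4 days. The shLacZ libraries lay between 50.4 and 62.8 CPM and the shDis3l2 libraries between 33.0 and 46.5 CPM, without overlap, as in 13.3% of genes in that direction. The ratio came closest to 1 at d12 (0.921, 0.816 to 1.04). Ccna2 was 0.835 times as high (0.757 to 0.920, adjusted p = 0.0144), with daily ratios from 0.769 to 0.852, and Cdkn1a 0.849 times (0.756 to 0.954, adjusted p = 0.0369), with daily ratios from 0.703 to 0.873. The ranges of the lines overlapped for Ccna2 and Cdkn1a, and also for the higher members Ccnd3, Cdkn1b and Cdkn2c. The call of Cdkn1a was lost without the filter on low counts (edgeR adjusted p = 0.0589).

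Cdkn1b was 1.39 times as high in shDis3l2 (1.17 to 1.66, edgeR adjusted p = 0.0136), higher on 4 of 4 days, and reached 63.8 against 60.6 CPM at d12 (1.05-fold, 0.948 to 1.17). Cdkn2c was 1.93 times as high (1.26 to 2.96, adjusted p = 0.0272) at levels of 0.871 to 3.76 CPM, and this call was lost with DESeq2 (adjusted p = 0.071). Cdkn2b missed the threshold (log2 difference 0.55, SE 0.24, adjusted p = 0.112), with shDis3l2 below shLacZ at d6 and above it at d8, d10 and d12. Cdkn2a did not pass (log2 difference -0.25, SE 0.25, adjusted p = 0.476).

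**Figure D3:**
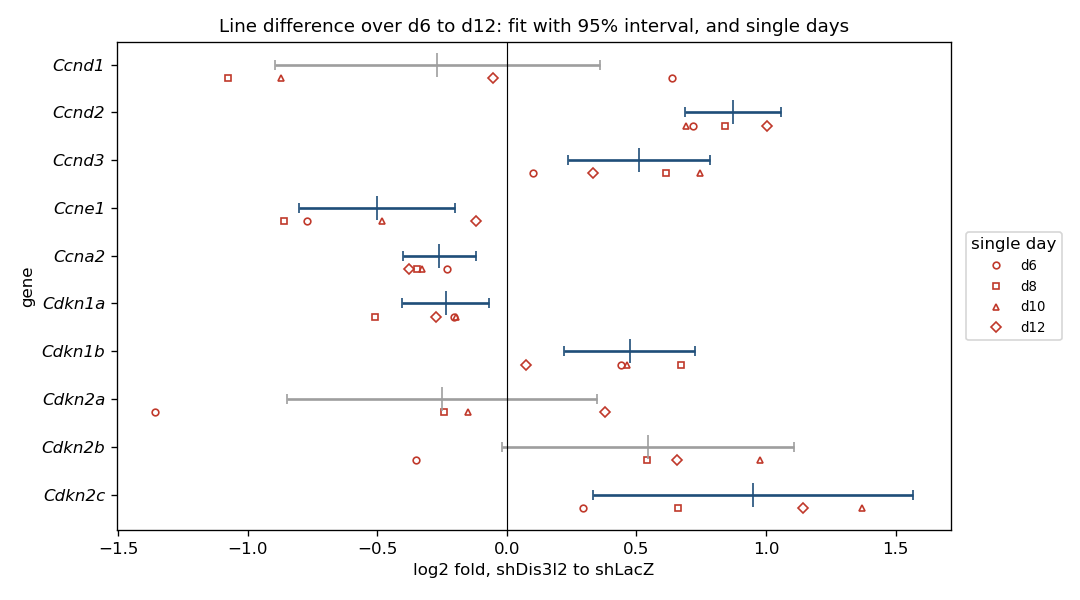
Line difference of each gene (rows) over d6 to d12 as log2 fold of shDis3l2 to shLacZ (horizontal axis). Bars give the edgeR estimate with its 95% interval, blue where the adjusted p was under 0.05 and grey where it was not, and open red symbols give the single days. The days of Ccnd2 and Ccna2 lie close together, at ratios of 1.61 to 2.00 and 0.769 to 0.852, whereas those of Ccnd1 and Cdkn2a fall on both sides of 0.

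Day by day, a gene was counted as different at a ratio of at least 2 and at least 1 CPM in 1 library of the day. Of 67 pairs of a member and a day above this minimum, 3 were higher in shDis3l2, Cdkn2c at d10 and d12 and Ccnd2 at d12, and 2 were lower, Cdkn2a at d6 and Ccnd1 at d8. Over all genes, 6.95% of such pairs were higher and 6.78% lower, and the count of the members was near this background. By day, the shares higher and lower were 4.84 and 8.06% on d0, 0.870 and 1.07% on d2, 1.90 and 5.09% on d4, 6.45 and 8.25% on d6, 9.61 and 9.59% on d8, 13.0 and 9.74% on d10, and 11.3 and 5.63% on d12. The ratio of Cdkn2a at d6 was 0.390 (0.299 to 0.504), from 18.0 and 7.02 CPM. The ratio of Cdkn2c was 2.59 at d10 (1.37 to 5.41) and 2.21 at d12 (1.25 to 4.05). The ratio of Ccnd1 at d8 was 0.507 under library totals, where it was not counted, and the split became 4 higher and 1 lower, as it did with the deposited CPM. That of Ccnd2 at d12 was 2.00 (1.86 to 2.16), which sits on the threshold, and Cdkn2b at d10, at 1.97 (1.39 to 2.85), sits just under it.

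Whether the line difference itself changed between d0 to d4 and d6 to d12 was tested as an interaction. None of the 10 members passed with edgeR, against 10.1% of genes (4.85% upward and 5.24% downward), and 3 had an unadjusted p under 0.05. These were Ccnd2 (log2 change of the difference 0.65, SE 0.21, adjusted p = 0.0772), Ccne1 (-0.48, SE 0.18, adjusted p = 0.111) and Cdkn2c (1.37, SE 0.49, adjusted p = 0.0979). With DESeq2 1 member passed, Ccnd2 (adjusted p = 0.0485). With edgeR, Ccnd2 passed without d4 (log2 change 1.04, adjusted p = 0.0151) and without the filter on low counts (adjusted p = 0.0155), and Ccne1 passed without d12 (-0.62, adjusted p = 0.0355). Library totals moved the median of all genes in this test from -0.04 to 0.13 on the log2 scale. With all days in the edgeR fit, the late differences above are therefore not shown to differ from the early ones.

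The other genes of the cell cycle were taken from lists of machinery and regulators. Over d6 to d12, 19.6% of all genes tested were higher and 18.7% lower in shDis3l2. The list of replication origin and S phase genes moved most evenly between the lines. Of 20 such genes, 13 were lower and none higher in shDis3l2 over d6 to d12, with a median log2 difference of -0.26, and their summed level was 2428 to 3069 CPM in shLacZ and 1900 to 2416 CPM in shDis3l2. Cdt1, which licenses origins, had the lowest late ratio (0.559 times shLacZ, edgeR adjusted p = 0.000943), and Mcm5, a subunit of the replicative helicase, was at 0.585 times (adjusted p = 0.00053). Without d8, d10 or d12, 8 of the 20 were lower. From d2 to d12, 17 of the 20 fell and none rose, against 22.8% of all genes lower and 25.6% higher.

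Of 20 mitosis genes, 5 were lower and none higher in shDis3l2, near the 18.7% lower among all genes. Without d10 the count of lower genes was 1, and without d8 or d12 it was 2. From d2 to d12, 14 of the 20 fell and none rose, against 22.8% of all genes lower and 25.6% higher. Cdc20, an activator of the anaphase-promoting complex, was at 0.703 times shLacZ (edgeR adjusted p = 0.00346). The proliferation markers Top2a (log2 difference 0.14, SE 0.07, adjusted p = 0.143) and Mki67 (0.05, SE 0.07, adjusted p = 0.644) did not pass. Of 14 checkpoint genes 3 were lower and none higher in shDis3l2, again near the 18.7% lower among all genes. Chek2, a checkpoint kinase, was at 0.626 times (edgeR adjusted p = 0.00709).

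The partners of the members were mixed. Among all genes, 19.6% were higher and 18.7% lower in shDis3l2 over d6 to d12. Of 4 cyclin-dependent kinase genes, 1 was lower in shDis3l2, Cdk2 (0.793 times, edgeR adjusted p = 0.00883, lost without d8 or d10), while Cdk4 (log2 difference 0.19, SE 0.07, adjusted p = 0.0687) and Cdk6 (-0.36, SE 0.12, adjusted p = 0.057) missed the threshold. Of 7 other cyclin genes tested 2 were higher and 3 lower, among them Ccng2, a cyclin of arrested cells, at 1.61 times (adjusted p = 0.00345), and Ccnf at 0.685 times (adjusted p = 0.00169), and without d8 or without d10 the counts were 1 and 1. Of 13 pocket protein and E2F genes 2 were higher and 2 lower, near the shares of all genes. They included the pocket protein gene Rbl1 at 1.40 times (edgeR adjusted p = 0.00993, lost without d8 or d10) and E2f4 at 0.598 times (adjusted p = 0.0015).

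Of the 3 other inhibitor genes, 2 were higher, against 19.6% of all genes. Cdkn1c, the Cip/Kip gene p57, which is imprinted and marks cells that leave the cycle in embryos, was 7.33 times as high in shDis3l2 over d6 to d12 (edgeR adjusted p = 0.000339). Cdkn2d, the remaining Ink4 gene, was 1.39 times as high (adjusted p = 0.0275, lost without d6, d8 or d10). With Cdkn1b and Cdkn2c, both families thus had members that were higher, while Cdkn1a was lower.

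Of 17 p53 targets and regulators tested, 6 were lower and 3 higher in shDis3l2, with a median log2 difference of -0.24. The background of this and the following late counts was 18.7% of all genes lower and 19.6% higher. Btg2 was at 0.633 times shLacZ (edgeR adjusted p = 0.00122), Ccng1 at 0.781 times (adjusted p = 0.0458, lost without d8, d10 or d12) and Sesn1 at 1.45 times (adjusted p = 0.00705). Ccng1 stands in the list of other cyclins as well. The death receptor gene Fas, at a mean of 2.90 CPM, was 7.27 times as high (adjusted p = 0.00144). From d2 to d12, 14 of 18 fell and none rose, against 22.8% of all genes lower and 25.6% higher. Cdkn1a did not pass that contrast. Of 9 repressors of the Ink4 locus, which belong to Polycomb complexes, 3 were lower and 1 higher, and without d8 or d10 1 was lower and 0 were higher. Cbx7 was at 0.379 times (adjusted p = 0.00337), and the methyltransferase gene Ezh2 did not pass (log2 difference -0.21, SE 0.08, adjusted p = 0.0949). Of 7 Myc family genes 3 were higher, with Mxd4 at 1.88 times (adjusted p = 0.000427), and 2 lower, with Mycl at 0.51 times (adjusted p = 0.00518), and without d8 or d10 the counts were 1 and 1.

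**Figure D4:**
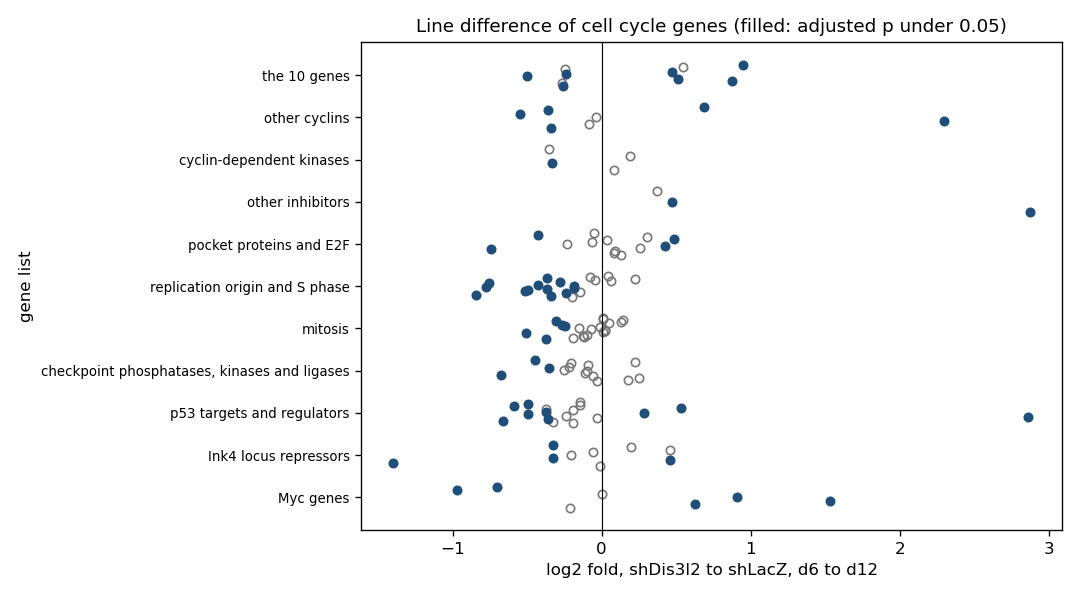
Line difference over d6 to d12 (horizontal axis, log2 fold of shDis3l2 to shLacZ from the edgeR fit) of every gene tested in the 10 members and 10 lists of other cell cycle genes (rows), 1 point per gene, filled where the adjusted p was under 0.05. Filled points of the S phase, mitosis and checkpoint lists lie below 0 only, whereas those of the members and of the other inhibitors include values above 0, up to 2.87 for Cdkn1c.

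Markers of cell types moved with the line over the same days, and their part in the differences of the members was not tested. Of all genes, 19.6% were higher and 18.7% lower over these days. Of 11 mesenchyme-like markers 9 were higher and none lower in shDis3l2, with a summed level of 390.3 to 1893 CPM in shLacZ and 1175 to 15240.1 CPM in shDis3l2, and none of them was at 0 throughout. Col1a2, a collagen chain, was 12.8 times as high (edgeR adjusted p = 0.000339). Of 11 visceral endoderm-like markers 10 were lower and none higher, with sums of 2733 to 6251 CPM and 527 to 1661 CPM, and Apob was at 0.211 times shLacZ (adjusted p = 0.000189). Of 12 pluripotency-like markers 10 were lower and none higher, and Pou5f1 was at 0.201 times (adjusted p = 0.00443).

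Smaller lists are set against the same shares, 19.6% of all genes higher and 18.7% lower. Of 8 cardiomyocyte-like markers tested 7 were higher (sums of 22.6 to 47.9 CPM and 38.5 to 213 CPM), of 8 blood-like and of 8 endothelial-like markers 3 each were higher, and of 9 neural-like markers tested 1 was higher and 4 lower. Neurog1, a neural-like marker, was at 0 at d0 in both lines, in all 4 late libraries of shDis3l2 and in at least 1 late library of shLacZ.

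Genes with a time course like that of each member were sought among 12891 protein-coding genes by Pearson's r of log2(CPM + 1) over the 14 libraries. As points of 1 time course in shared libraries these are descriptions only. Ccnd2 was most like Sema4c (r = 0.99) and Nek9 (0.99), Ccnd1 like Ube2n (0.97) and Hbs1l (0.96), and Ccnd3 like Smarcd3 and Yif1a (0.98 each). Ccne1 was most like Ccnb1ip1 and Pou4f1 (0.98 each) and Ccna2 like Nup54 and Hspd1 (0.96 each). Cdkn1a was most like 2700062C07Rik and Patl2 (0.93 each), Cdkn1b like Gtf2ird1 and Zkscan4 (0.97 each), Cdkn2a like Cltb (0.98) and Glb1 (0.97), Cdkn2b like Ampd3 and Vdr (0.90 each), and Cdkn2c like Parm1 (0.97) and Rcn3 (0.96). Among the 45 pairs of members, the most alike were Ccnd2 and Cdkn1b (r = 0.94) and the most opposed Ccna2 and Cdkn2c (r = -0.89).

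On GRCm38 the members lie on chromosome 7 (Ccnd1, ENSMUSG00000070348, chr7:144929931-144939925, minus strand, and Ccne1, ENSMUSG00000002068, chr7:38097984-38107534, minus strand), chromosome 6 (Ccnd2, ENSMUSG00000000184, chr6:127125162-127152193, minus strand, and Cdkn1b, ENSMUSG00000003031, chr6:134920401-134925513, plus strand) and chromosome 17 (Ccnd3, ENSMUSG00000034165, chr17:47505051-47599691, plus strand, and Cdkn1a, ENSMUSG00000023067, chr17:29090979-29100722, plus strand). Ccna2 (ENSMUSG00000027715) lies at chr3:36564865-36572150 on the minus strand. The 3 Ink4 genes lie on the minus strand of chromosome 4, Cdkn2a (ENSMUSG00000044303) at chr4:89274471-89294653, Cdkn2b (ENSMUSG00000073802) at chr4:89306289-89311032 and Cdkn2c (ENSMUSG00000028551) at chr4:109660876-109667189. All values sum the reads over the exons of a gene.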

How the data were processed

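PolyA RNA of 14 libraries (2 lines, 7 days, 1 library each) was sequenced. According to the methods and the labels, the authors used Subread for alignment to GRCm38 and featureCounts for counting, and the deposited counts of 50686 genes are not normalized. The CPM values, which the authors made with edgeR for 16181 protein-coding genes, were deposited in a second table. They carry a prior of 0.25 counts, are relative to the listed genes alone and have no TMM scaling. Lengths per gene were deposited with the counts. The columns of the second line carry another name than the labels. They were assigned to shDis3l2 because a supplementary table prints the same columns under that name.

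CPM and RPKM were computed from the counts with TMM-scaled library totals, so an error in a TMM factor moves every gene of a library alike. Ratios of 1 day have exact Clopper-Pearson 95% intervals and no test. Reads were amplified by PCR and carry no molecular identifiers, so they are not independent molecules and the intervals cover counting error only. A count of 3, taken as the floor, corresponded to 0.0984 CPM at the largest depth and to 0.384 CPM at the smallest. Across days and lines, edgeR 4.0.16 (quasi-likelihood F test, TMM, filterByExpr, R 4.3.3) was fitted over all genes, with Benjamini-Hochberg adjustment. The fits of the line had day as a block and those of days had line as a block. Alternatives were library totals, DESeq2 1.42.0 and its size factors, no filter, the deposited CPM, a ratio of 3, no minimum CPM, and each day left out.

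The members and the 17 lists of other genes were chosen with earlier results of these data known. Other genes are named from the rule that takes, of each list, the 3 highest by mean CPM and, among genes with at least 1 CPM in each late library, those with the highest and lowest late ratio, and of these not all are given. Fas, Neurog1, LTO1 and Exosc9 were named after their values were seen. Python 3.11.15 with pandas 2.3.3, scipy 1.17.1 and matplotlib 3.10.9 was used for the rest.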

Additional observations from a re-analysis of the deposited data

Results flagged for a closer look

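None of the 10 members had a line difference that changed between d0 to d4 and d6 to d12 by the interaction test of edgeR. Of 26 other genes tested for the text, 12 passed, against 10.1% of all genes. Most of these were named for a high or low late ratio, which enters the same difference, so their log2 changes of the difference are descriptions and not independent tests. Dis3l2 itself moved by 1.61 (SE 0.29), from a strong reduction in the early libraries labelled shDis3l2 to a weak one. Upward changes were 2.197 for Cdkn1c, 0.69 for Rbl1 and 3.37 for Col1a2. Downward changes were -0.48 for Ccnf, -0.68 for Mcm5, -0.53 for Cdt1, -0.59 for Cdc20, -0.85 for Chek2, -1.05 for Mycl, -1.37 for Cbx7 and -2.33 for Pou5f1. These tests rest on 3 early and 4 late days of 1 series per line. With 1 library per line and day, single libraries could not be checked against replicates.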

How the results depend on the processing

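The fits of the line were paired by day, and there are no replicate libraries within a day. Depth limits Cdkn2c (5 to 75 reads), Ccnd2 at d0 (19 and 10 reads) and Cdkn2b at d4. With a ratio of 3 in place of 2, 0 pairs of a member and a day differed, and the other alternatives gave 5 or 6 pairs against 5. For d12 against d2, 6 to 8 members passed under the alternatives (6), with Ccnd1 gained in 5 of 9. For d2 against d0 the count was 7 under each alternative run, but with library totals Cdkn1a was lost and Ccna2 gained. Over d6 to d12 the count of members called ranged from 1 to 9 with a day left out (7 with all days) and that of all genes from 3336 to 6678 (6574). Over all days it was 2 members with DESeq2 and without the filter, 0 with library totals and with DESeq2 size factors, and 0 to 2 with a day left out (1 with all), and that of all genes 2522 with DESeq2, 2093 without the filter and 8 to 2190 with a day left out (1147). For the change of the difference it was 1 member with DESeq2 and without the filter and 0 to 1 with a day left out (0), and of all genes 3279 without the filter and 524 to 2151 with a day left out (2023), and library totals turned the split to 1135 higher and 415 lower from 972 and 1051. Among the fits of members, the direction turned in values that passed in no setting of that contrast: Cdkn2a without d6 (0.0488 over d6 to d12, range with a day left out -0.48 to 0.0488), Ccnd1 over all days without d8 (0.0106, range -0.27 to 0.0106), and Cdkn2a in the change of the difference without d2 or d6 (range -0.45 to 0.0717). Day ratios of Ccnd2, Ccnd3, Cdkn1a and Cdkn2a at d0, Ccnd3 at d2 and Ccnd1 at d12 lay on the other side of 1 under at least 1 other scaling (Cdkn1a at d0 1.08 with TMM, 0.904 with library totals). Without division by length, Ccnd2 held 32.8% of the D-type sum at d12 in shLacZ in place of 27.8%. Of the D-type shares at d0 and d12 in both lines, 10 moved beyond counting error and 2 did not. The order of Ccnd1 and Ccnd3 at d0 was reversed. Of the lists, the pluripotency-like count of lower genes ranged from 5 to 10 (10), that of the p53 list from 2 to 9 (6) and that of higher cardiomyocyte-like genes from 3 to 7 (7) with a day left out, while the visceral endoderm-like count stayed at 10. The causes were not tested.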
